A study of Mus musculus with 6 samples.

Results

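The transcripts described here are those of 30 genes of cholesterol and fatty acid synthesis. They were taken by symbol from the deposited counts, which hold 51499 loci of mouse embryonic fibroblasts (MEFs) with and without the mitochondrial protease YME1L. A locus for 29 of the 30 genes was found and all 29 were among the 13867 loci that passed the filter on low counts, so no member was lost to that filter. Expression of the remaining gene, Mvd, was not analysed here. The study asked how loss of YME1L changes gene expression in MEFs, and its RNA-Seq part compared 3 cultures of WT MEFs (genotype Yme1l fl/fl, both alleles floxed and intact) with 3 cultures of Yme1l-/- MEFs. Cells of both genotypes carry SV40 for immortalization. According to the study's methods, they descend from MEFs of floxed animals that were transduced with Cre recombinase and expanded as individual clones, so the genotypes also differ by clone. The number of clones behind the cultures was not given in the sources used here.

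Cholesterol is built from acetyl-CoA through mevalonate, isoprenoids and squalene, which is closed to lanosterol and then trimmed to cholesterol. Fatty acids are built from citrate-derived acetyl-CoA by acetyl-CoA carboxylase and fatty acid synthase, and are then elongated and desaturated. Transcription of most of these enzymes is driven by the SREBP proteins, which are held in the endoplasmic reticulum by SCAP and INSIG when sterols are plentiful and are cut by proteases in the Golgi when sterols are scarce. Fibroblasts in culture run both pathways and also take up sterols from serum lipoproteins.

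The 6 libraries held between 33180867 and 49351107 counted fragments, and the lowest count of a member in a library was 441 fragments (Pmvk) against 24960 (Scd2) for the highest. The targeted gene, Yme1l1, averaged 188.7 ± 5.16 CPM (counts per 1e6 fragments of the scaled library, SD, n = 3) among WT cultures against 39.1 ± 1.34 CPM among Yme1l-/- cultures, the direction that the labels give. The 10 fibroblast markers examined summed to 11400 to 12000 CPM per WT library and 7080 to 7580 CPM per Yme1l-/- library, and of the 9 that were tested 7 were called lower and 1 higher in the latter. Thy1, a surface marker of many fibroblasts, had 4 to 6 fragments per WT library and 0 in every Yme1l-/- library. Markers of adipocytes, which make fatty acids in quantity, summed to 7.27 to 8.73 CPM in WT and 7.52 to 9.02 CPM in Yme1l-/-, with Lep at 0 throughout, and hepatocyte markers summed to at most 2.17 CPM, with Ttr and Cyp7a1 at 0. The 5 epithelial markers summed to 33.1 to 35.1 CPM in WT, most of it from Krt18 at 31.0 to 33.2 CPM, and to at most 0.657 CPM in Yme1l-/-, where Krt18 had at most 3 fragments. Endothelial markers summed to 0.888 to 1.44 CPM in WT and 1.67 to 2.00 CPM in Yme1l-/- libraries, with Kdr called higher in the latter. Blood markers summed to 1.74 to 1.96 CPM in WT and 3.77 to 4.14 CPM in Yme1l-/- libraries. Of these, Cd68 was called higher in Yme1l-/- and the globin gene Hbb-bs was at 0. WT replicate 2 stood apart from the other WT libraries, with a chi-square per degree of freedom of 34.4 and 37.2 against 12.5 between those, and with the collagen gene Col3a1 at 301.2 CPM against 86.3 and 91.1 CPM. The part of these differences in the results that follow was not tested. In bulk RNA, fewer cells that express a gene and less RNA per cell cannot be told apart.

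Most member transcripts differed between the genotypes, but by small amounts and in both directions. Of the 29 loci, 14 were higher and 11 were lower in Yme1l-/- MEFs at an adjusted p under 0.05, so that 86.2% were called, where 67.7% of all loci tested were called (33.6% higher and 34.1% lower). Without WT replicate 2, the library that stood apart, 13 were higher and 10 lower, the calls for Insig1 and Fdft1 being lost. Libraries of the genotypes did not overlap for 27 of the 29, where 71.9% of all loci did not overlap. None of the 29 changed by 2-fold or more, a change that 17.7% of all loci showed together with a call. The log2 fold changes (Yme1l-/- over WT) ran from -0.83 for Msmo1 to 0.63 for Hmgcs1, with a median absolute value of 0.35 against 0.38 over all loci. Cultures of a genotype were close, with a median coefficient of variation of 3.67% in WT and 3.61% in Yme1l-/-, and the standard errors (SE) of the log2 fold changes lay between 0.04 and 0.09.

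**Figure D1:**
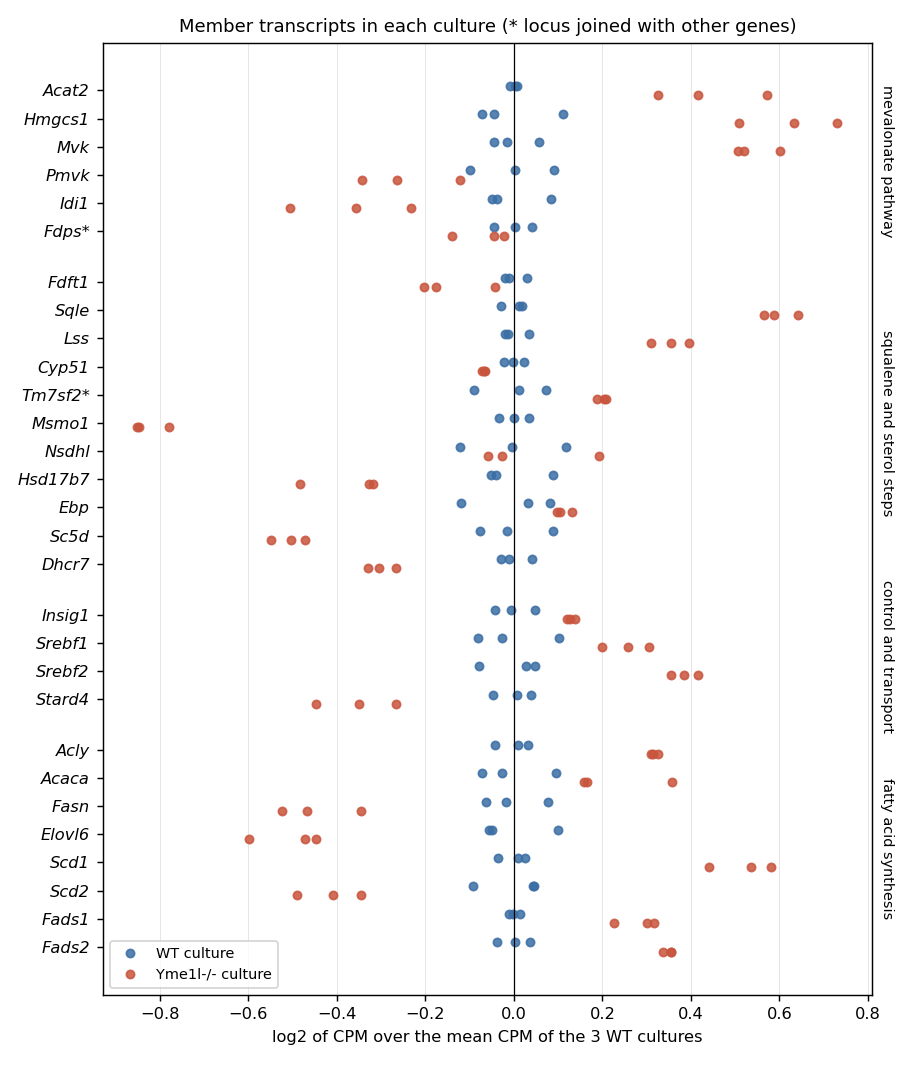
Each point is 1 culture (blue WT, red Yme1l-/-), placed on the x axis by the log2 of its CPM over the mean CPM of the 3 WT cultures, with 1 row per member transcript grouped by role. The red points lie to the right of all blue points for 15 genes and to the left for 12, and they overlap with the blue points for Fdps and Nsdhl.

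In the mevalonate pathway, Acat2, Hmgcs1 and Mvk rose while Pmvk and Idi1 fell. Hmgcs1 (mm10, chr13:119690379-119708260), which encodes the synthase that makes HMG-CoA, was at 54.7, 62.2 and 55.7 CPM in the WT cultures and at 81.9, 89.2 and 95.5 CPM in the Yme1l-/- cultures. All Yme1l-/- cultures lay well above all WT cultures, an increase of 54.5% (log2 fold change 0.63 ± 0.07, SE, edgeR adjusted p 7.5e-06). On all cultures it was the largest rise among the members, but within its SE of Sqle at 0.60 ± 0.04 (log2 fold change ± SE). Acat2, whose product condenses acetyl-CoA to acetoacetyl-CoA, rose by 0.44 ± 0.06 on the log2 scale (SE), from 33.95 ± 0.181 to 46.1 ± 3.99 CPM (SD, n = 3). Mvk, which encodes mevalonate kinase, went from 27.3, 25.4 and 26.0 CPM to 39.8, 37.3 and 37.6 CPM (0.54 ± 0.06, log2 fold change ± SE).

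By contrast, Idi1, which encodes isopentenyl diphosphate isomerase, fell from 72.2, 79.3 and 72.8 CPM to 52.7, 58.4 and 63.6 CPM, with no overlap (log2 fold change -0.36 ± 0.07, SE, edgeR adjusted p 0.00068). Pmvk, the gene of the kinase that follows MVK, averaged 15.97 ± 1.05 CPM (SD, n = 3) in WT cultures against 13.5 ± 1.06 CPM in the others. The lower call for Pmvk (-0.24 ± 0.08, SE, edgeR adjusted p 0.025) did not hold when 1 of 4 particular cultures was omitted, namely WT replicate 1 (adjusted p 0.0569), WT replicate 3 (0.101), Yme1l-/- replicate 1 (0.075) or Yme1l-/- replicate 2 (0.0803). Fdps, the farnesyl diphosphate synthase gene, was counted in a locus merged with Rusc1 and Gm43738. That merged locus was at 49.2 ± 1.49 and 46.9 ± 2.01 CPM (SD, n = 3), and its difference of -0.07 ± 0.05 (SE) did not pass the test. Of 6 loci tested in this pathway 3 were therefore higher and 2 lower (83.3% called against 67.7% of all loci), with a median log2 fold change of 0.19 against 0.00 over all loci, and the median was 0.44 without the merged locus. Relative to the medians of their chromosomes 3 were higher, 1 was lower and 2 were not called.

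Of the 11 loci for the steps from squalene to cholesterol, 3 were higher and 5 lower (72.7% called against 67.7% of all loci), with a median log2 fold change of -0.07. Relative to the medians of their chromosomes 2 were higher, 4 lower and 5 not called, with a median of 0.01. The calls for Sqle, Lss, Tm7sf2 and Fdft1 were lost, and the 2 higher loci were Nsdhl and Ebp, not called before. Sqle (chr15:59315077-59331192), which encodes squalene epoxidase, was at 78.8, 76.6 and 79.3 CPM in WT and at 122, 118 and 116 CPM in Yme1l-/- cultures. The groups did not overlap (log2 fold change 0.60 ± 0.04, SE, edgeR adjusted p 4.0e-07), but the value was 0.01 with the median of chromosome 15 removed. Lss, the gene of lanosterol synthase, rose from 52.8 ± 1.11 to 67.4 ± 2.04 CPM (SD, n = 3). The largest change of any member was the fall of Msmo1 (chr8:64718139-64733792), whose product removes the methyl groups at carbon C4 of sterols, from 79.1, 81.0 and 77.3 CPM in WT to 44.0, 43.9 and 46.1 CPM in Yme1l-/- cultures. This fall by 43.6% had a log2 fold change of -0.83 ± 0.05 (SE) and an edgeR adjusted p of 3.9e-08.

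Other late steps fell by less. Sc5d, the sterol desaturase gene, went from 55.3, 51.5 and 49.3 to 37.5, 35.6 and 36.7 CPM (-0.51 ± 0.05, log2 fold change ± SE). Hsd17b7, which encodes a sterol ketoreductase, was at -0.38 ± 0.07 and Dhcr7, whose product makes cholesterol in the last step of its branch, at -0.30 ± 0.06 (log2 fold change ± SE). Both had no overlap between the genotypes. Fdft1, the squalene synthase gene, averaged 41.0 ± 0.749 CPM (SD, n = 3) in WT cultures against 37.2 ± 2.23 CPM in the others. Its call (-0.14 ± 0.06, SE, edgeR adjusted p 0.0454) survived the omission of Yme1l-/- replicate 3 but not that of any other culture. The adjusted p was 0.0695, 0.076 and 0.12 without WT replicates 1, 2 and 3, and 0.113 and 0.159 without Yme1l-/- replicates 1 and 2. It was 0.0708 by DESeq2.

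For the remaining genes of this branch the values were close. Cyp51, which encodes lanosterol demethylase, was at 99.9, 103 and 101 CPM in WT and at 96.5, 96.8 and 96.9 CPM in Yme1l-/- cultures. These did not overlap, yet the difference of -0.07 ± 0.04 (SE) was not called. Ebp, the sterol isomerase gene, stood at 24.5 ± 1.75 and 26.4 ± 0.332 CPM (SD, n = 3), a difference of 0.11 ± 0.06 (SE) that passed the test only with upper-quartile scaling (adjusted p 0.0316) or with chromosome medians removed. Nsdhl, the sterol dehydrogenase gene, overlapped between genotypes, with 18.0 ± 1.49 and 18.5 ± 1.80 CPM (SD, n = 3). Tm7sf2, a sterol reductase gene, was counted together with Vps51, Zfpl1 and Gm28374, and that merged locus rose from 56.9 ± 3.24 to 65.4 ± 0.466 CPM (SD, n = 3). A rise of Tm7sf2 itself cannot be told from it.

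The assembled loci of some members reached beyond their gene. By GENCODE M21 on the same build, the Cyp51 locus spanned 177 kb against 23.6 kb for the gene and covered Akap9 on the opposite strand. The Srebf1 locus spanned 118 kb against 23.5 kb and covered Rai1 on the opposite strand as well as 4930412M03Rik on its own. The Fdft1 locus, 57.1 kb against 34.4 kb, overlapped Ctsb on the opposite strand. The libraries were stranded, but whether counting used strand was not stated, so fragments of these neighbours may be included in the values of Cyp51, Srebf1 and Fdft1.

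All 4 genes of control and transport were called, 3 higher and 1 lower, where 67.7% of all loci were called. With chromosome medians removed 1 was higher, 2 were lower and 1 was not called. Srebf2, which encodes the SREBP that mainly drives sterol genes, was at 181, 168 and 183 CPM in WT and at 227, 231 and 236 CPM in Yme1l-/- cultures, a rise of 30.6% (log2 fold change 0.39 ± 0.05, SE) that turned to a lower call at -0.21 with the median of chromosome 15 removed. Srebf1, whose product mainly drives fatty acid genes, rose by 0.25 ± 0.06 on the log2 scale (SE), from 95.8 ± 6.37 to 114.3 ± 4.13 CPM (SD, n = 3), and its call was lost at -0.10 with the median of chromosome 11 removed. Insig1, a sterol-sensing anchor that is itself an SREBP target, moved only from 48.1 ± 1.54 to 52.6 ± 0.333 CPM (SD, n = 3). The call for Insig1 (0.13 ± 0.05, SE, edgeR adjusted p 0.0277) was lost without WT replicate 2 (adjusted p 0.078), WT replicate 3 (0.101) or Yme1l-/- replicate 2 (0.083), and by DESeq2 (0.0697). Stard4, a cholesterol carrier of the cytosol, fell from 64.1, 61.8 and 65.6 CPM to 46.8, 50.1 and 53.0 CPM (log2 fold change -0.35 ± 0.06, SE, edgeR adjusted p 0.00016).

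All 8 genes of fatty acid synthesis were called, 5 higher and 3 lower, where 33.6% of all loci were higher and 34.1% lower, and the members with the highest counts were among those that fell. Fasn (chr11:120805846-120824547), which encodes fatty acid synthase, was at 524, 508 and 559 CPM in WT and at 369, 417 and 384 CPM in Yme1l-/- cultures. That was a fall by 26.5%, with a log2 fold change of -0.44 ± 0.06 (SE) and an edgeR adjusted p of 3.7e-05. After removal of chromosome medians 3 of the 8 were higher, 3 lower and 2 not called, and their median log2 fold change was -0.08 in place of 0.26. Acly, whose product cleaves citrate to acetyl-CoA, rose from 270.1 ± 7.02 to 336.4 ± 1.88 CPM (SD, n = 3), and Acaca, which encodes acetyl-CoA carboxylase, from 250.5 ± 15.3 to 293.7 ± 23.5 CPM. Their log2 fold changes were 0.32 ± 0.04 and 0.23 ± 0.06 (SE), and neither call held with the median of chromosome 11 removed. Elovl6, which encodes the elongase of saturated fatty acids, fell from 58.9, 58.6 and 65.3 CPM to 40.2, 44.0 and 44.7 CPM (-0.50 ± 0.06, log2 fold change ± SE).

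The stearoyl-CoA desaturase genes, which lie 101 kb apart on chromosome 19 and encode enzymes of the same reaction, moved in opposite directions. Scd1 (chr19:44394451-44407709) was at 141, 139 and 135 CPM in WT and at 188, 200 and 207 CPM in Yme1l-/- cultures (log2 fold change 0.52 ± 0.05, SE, edgeR adjusted p 1.9e-06). Scd2 (chr19:44293676-44306864) was at 643, 584 and 642 CPM in WT and at 444, 469 and 490 CPM in Yme1l-/- cultures (-0.41 ± 0.06, SE, edgeR adjusted p 5.5e-05). Neither gene overlapped between genotypes, and Scd2 stayed the more abundant. How fragments shared between these related transcripts were assigned was not stated. Scd3 and Scd4, the other copies of the cluster, had at most 22 fragments in a library. The desaturases of polyunsaturated fatty acids, Fads1 and Fads2, rose together, by 0.28 ± 0.04 and 0.35 ± 0.04 (log2 fold change ± SE). Summed over the 8 loci, fatty acid genes took 2032 to 2176 CPM in WT and 1931 to 2069 CPM in Yme1l-/- libraries, so the sums overlapped although each gene was called.

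Whole chromosomes differed in their median fold change, so members were also set against the other loci of their chromosome. Medians of the log2 fold change were 0.59 for chromosome 15 (545 loci tested) and 0.36 for chromosome 11 (1112 loci), and -0.32 and -0.36 for chromosomes 8 and 9. With the median of each chromosome removed in the fit, 9 of the 29 loci were called higher and 10 lower, and 62.8% of all loci were called (31.1% higher and 31.7% lower). Of the 14 higher calls 7 remained, for Acat2, Hmgcs1, Mvk, Insig1, Scd1, Fads1 and Fads2, and of the 11 lower calls 9 remained. The calls for Sqle, Lss, Tm7sf2, Srebf1, Acly, Acaca, Pmvk and Fdft1 were lost, and Nsdhl and Ebp on the X chromosome, whose median was -0.21, were called higher at 0.25 and 0.32.

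Sqle and Srebf2 lie on chromosome 15. Relative to its loci Sqle was at 0.01 (edgeR adjusted p 0.923), and Srebf2 was called lower at -0.21 (edgeR adjusted p 0.00208), so the direction of Srebf2 depended on the reference. On chromosome 11, Acly was at -0.04, Acaca at -0.13 and Srebf1 at -0.10 after removal, none of them called. Fasn on the same chromosome was then at -0.80, the lowest value among the members. Msmo1 on chromosome 8 was at -0.51 (edgeR adjusted p 2.4e-06) and Sc5d on chromosome 9 at -0.15. Hmgcs1 and Mvk, on chromosomes with medians of 0.08 and 0.01, kept 0.55 and 0.53.

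**Figure D2:**
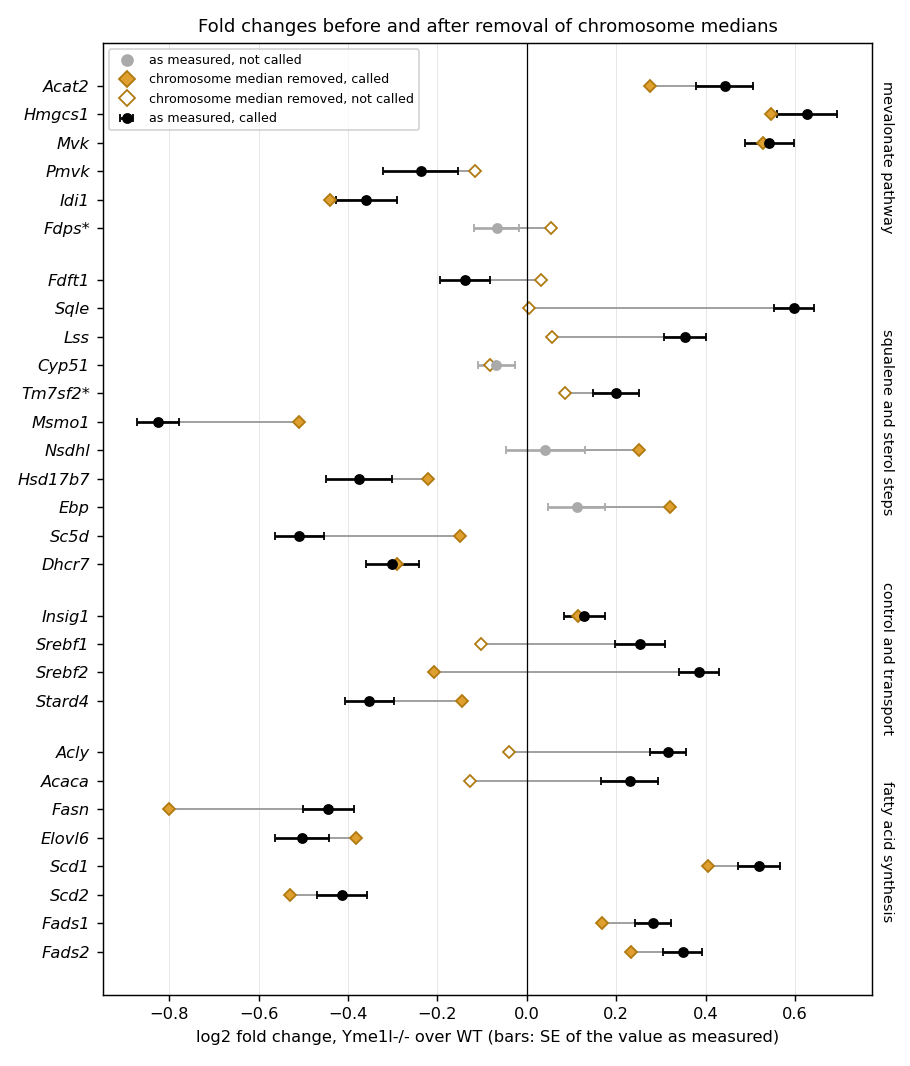
Circles give the log2 fold change of each member (Yme1l-/- over WT, bars SE; black called at an edgeR adjusted p under 0.05, grey not called) and diamonds the value with the median of its chromosome removed (filled called, open not called). Sqle moves from 0.60 to 0.01 and Srebf2 from 0.39 to -0.21, whereas Hmgcs1 and Mvk stay above 0.5 and Fasn moves to -0.80.

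Ratios of fragments between members of the same chromosome within a library depend neither on library scaling nor on a shift that all genes of that chromosome share. The 9 pairs given here were chosen after their values were seen, and no test was run on them. For Scd1 to Scd2 the ratio was 0.219, 0.238 and 0.210 among WT libraries against 0.423, 0.427 and 0.422 among Yme1l-/- libraries. It was 1.91 times as high in Yme1l-/- MEFs, with 2 narrow and separate groups. The ratio of Hmgcs1 to Idi1, genes of the same pathway on chromosome 13, was 0.769 ± 0.013 in WT and 1.53 ± 0.026 in Yme1l-/- (SD, n = 3). The ratio of Acly to Fasn was 0.501, 0.536 and 0.494 in WT and 0.918, 0.803 and 0.875 in Yme1l-/- libraries, and Acaca and Srebf1 likewise gained on Fasn, by 1.59 and 1.63 times. Mvk gained on Cyp51 by 1.53 times and Sqle on Srebf2 by 1.16 times. The ratio of Fads1 to Fads2 was 2.76 ± 0.047 and 2.63 ± 0.070, a smaller difference although these did not overlap, and that of Ebp to Nsdhl overlapped.

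**Figure D3:**
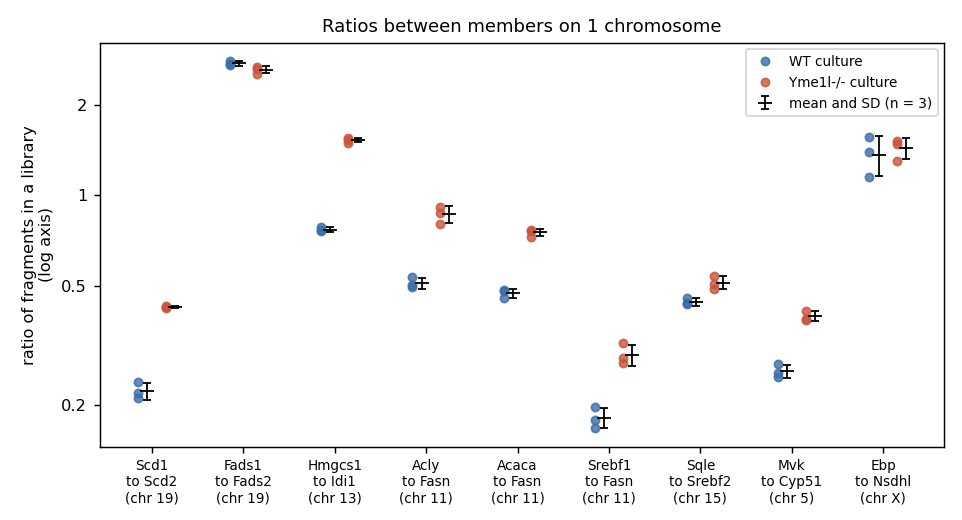
Points are ratios of raw fragments between members of 1 chromosome in each library (log axis, blue WT, red Yme1l-/-), with the mean and SD of 3 cultures beside them in black. The ratio of Scd1 to Scd2 is near 0.222 in WT and 0.424 in Yme1l-/-, that of Hmgcs1 to Idi1 goes from 0.769 to 1.53, and the groups overlap only for Ebp to Nsdhl.

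Promoters were examined because the enzymes share regulators. RefSeq windows of 250 bases before the start (GRCm38.p6) were used for the 22 tested members that have one, some with several starts. The strict sterol regulatory element TCACNCCAC, read on both strands, was found in 1 of the 22, Hmgcs1, against 1.25% of the 9969 tested genes with a window. CCAAT, the core of the NF-Y site, was found in 17 of 22 members (77.3%) against 41.2% of those tested genes, and GGGCGG, an Sp1 core, in 18 of 22 (81.8%) against 65.2%. CCAAT was present in 7 of the 11 members called higher and in 7 of the 8 called lower, so it was found on both sides. A match is a description of the letters and no evidence of binding. Shown are the windows of rising Hmgcs1 and Acly and of falling Fasn and Sc5d, none of which overlaps an annotated exon, as examples of genes with opposite changes. Capitals mark the sterol element and CCAAT or its reverse complement ATTGG, and in Fasn a match on each strand overlaps as ccaattgg. Acly has neither and has 4 matches of GGGCGG.
Hmgcs1 (chr13:119690101-119690350, plus strand): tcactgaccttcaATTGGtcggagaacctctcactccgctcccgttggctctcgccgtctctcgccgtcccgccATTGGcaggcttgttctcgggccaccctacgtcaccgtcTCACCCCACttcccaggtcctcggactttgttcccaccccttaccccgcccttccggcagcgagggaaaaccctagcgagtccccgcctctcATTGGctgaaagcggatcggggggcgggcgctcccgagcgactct
Acly (chr11:100528001-100528250, minus strand): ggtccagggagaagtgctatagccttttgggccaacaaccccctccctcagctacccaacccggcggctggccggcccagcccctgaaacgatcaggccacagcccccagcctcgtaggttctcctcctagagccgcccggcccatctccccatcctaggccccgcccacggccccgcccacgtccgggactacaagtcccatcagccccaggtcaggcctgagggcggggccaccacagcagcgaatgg
Fasn (chr11:120824548-120824797, minus strand): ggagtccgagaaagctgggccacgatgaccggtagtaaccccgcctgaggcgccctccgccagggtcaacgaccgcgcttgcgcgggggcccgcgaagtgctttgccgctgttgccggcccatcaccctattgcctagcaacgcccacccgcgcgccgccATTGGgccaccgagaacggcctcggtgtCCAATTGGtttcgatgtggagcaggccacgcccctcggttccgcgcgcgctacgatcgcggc
Sc5d (chr9:42264301-42264550, minus strand): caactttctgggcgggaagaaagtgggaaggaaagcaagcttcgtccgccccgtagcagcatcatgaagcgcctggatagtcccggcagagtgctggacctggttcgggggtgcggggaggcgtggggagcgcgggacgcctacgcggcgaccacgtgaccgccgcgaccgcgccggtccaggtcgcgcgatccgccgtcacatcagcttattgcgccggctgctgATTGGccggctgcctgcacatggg

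To compare levels between genes, the authors' FPKM values were used for the 27 members whose locus name held no other gene. FPKM stands for fragments per kilobase of transcript and 1e6 mapped fragments, given as 1 combined value per genotype without a spread. Among these members, the loci of Cyp51, Srebf1 and Fdft1 reached beyond their gene, so their values may include neighbours. Scd2 had the highest value in both genotypes, 114.0 in WT and 85.6 in Yme1l-/- MEFs. In WT it was followed by Fasn at 70.6, Acly at 65.0 and Fads1 at 49.1, so the fatty acid genes held the highest places. Msmo1 was the leading sterol enzyme in WT, at 45.2 and place 5, and stood at 25.9 and place 13 in Yme1l-/- MEFs. Sqle, at 29.1 in WT, was at 44.2 in Yme1l-/- MEFs and above every other sterol enzyme there. Hsd17b7 was lowest in both, at 5.61 and 3.96. Without replicates on this scale, neighbours in the order cannot be separated.

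Other genes of the pathways were read from the same fit. Of 53 genes in 4 lists, 50 loci were tested, and 17 were higher and 18 lower (70.0% called against 67.7% of all loci), with a median log2 fold change of -0.02. With chromosome medians removed 21 were higher and 12 lower, so the balance of the calls depended on the reference. Abcg1, Thrsp and Mlxipl were below the filter. Among 10 genes listed for SREBP control 7 were lower and 2 higher, where 34.1% of all loci were lower and 33.6% higher. The median log2 fold change was -0.25, or -0.08 with chromosome medians removed. The list mixes genes that activate SREBP with genes that restrain it, so these counts give no direction of SREBP activity. Rnf139, called higher, was counted in a locus merged with Ndufb9 among others. Mbtps1, which encodes the first protease that cuts SREBP in the Golgi, went from 342, 332 and 348 CPM in WT to 233, 231 and 230 CPM in Yme1l-/- cultures (log2 fold change -0.56 ± 0.04, SE, edgeR adjusted p 2.9e-07). The groups were far apart, and the call held at -0.24 with the median of chromosome 8 removed. Scap, the SREBP escort, was at -0.43 ± 0.05, Mbtps2, the second protease, counted in a locus merged with Yy2, at -0.35 ± 0.06 and Insig2 at -0.24 ± 0.05 (log2 fold change ± SE). With chromosome medians removed these were at -0.08, -0.14 and -0.08 and no longer called, and of the 7 lower calls in the list 2 were left.

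In sterol uptake, storage and efflux, 7 loci of the 17 tested rose and 4 fell, so that 64.7% were called against 67.7% of all loci. Relative to the medians of their chromosomes 6 were higher and 5 lower. Vldlr, a lipoprotein receptor gene, rose from 14.4, 17.5 and 16.1 CPM to 51.4, 53.3 and 50.3 CPM. Its log2 fold change of 1.69 ± 0.07 (SE) is larger than the value of any member. Soat1, whose product esterifies cholesterol for storage, fell by 0.76 ± 0.06 on the log2 scale (SE), and Abca1, the cholesterol efflux pump gene, by 0.82 ± 0.12. Of 4 further synthesis genes the only call was that of Lbr, a sterol reductase gene, lower at -0.52 ± 0.05 (SE).

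In fatty acid supply, elongation and storage, 8 of 19 tested loci were higher and 6 lower (73.7% called against 67.7% of all loci), with a median log2 fold change of 0.02. With chromosome medians removed 12 were higher and 4 lower, with a median of 0.26. The largest rises were those of Elovl3, an elongase gene with few fragments at 0.356 ± 0.188 CPM among WT and 1.31 ± 0.232 CPM among Yme1l-/- cultures (SD, n = 3), Dgat2 and Acacb. Dgat2, whose product makes triglyceride in its final step, was at 13.2, 13.7 and 11.7 CPM in WT and at 30.8, 28.5 and 29.8 CPM in Yme1l-/- cultures. This was a log2 fold change of 1.21 ± 0.07 (SE, edgeR adjusted p 7.3e-08), and the groups did not overlap. Acacb, the gene of the second acetyl-CoA carboxylase, whose product restrains mitochondrial fatty acid import, rose by 1.13 ± 0.15 (SE) from a low level of 1.75 ± 0.0287 CPM (SD, n = 3). Outside the rule for named genes and chosen after their values were seen, Gpam (1.09 ± 0.06) and Dgat1 (0.82 ± 0.06, log2 fold change ± SE), which also act in triglyceride synthesis, were higher, whereas Lpin1 of the same route was at 0.13 (edgeR adjusted p 0.428), with overlapping libraries. After removal of chromosome medians, Dgat1 on chromosome 15 was at 0.22 and Lpin1 on chromosome 12 was called higher at 0.57 (edgeR adjusted p 0.00387).

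**Figure D4:**
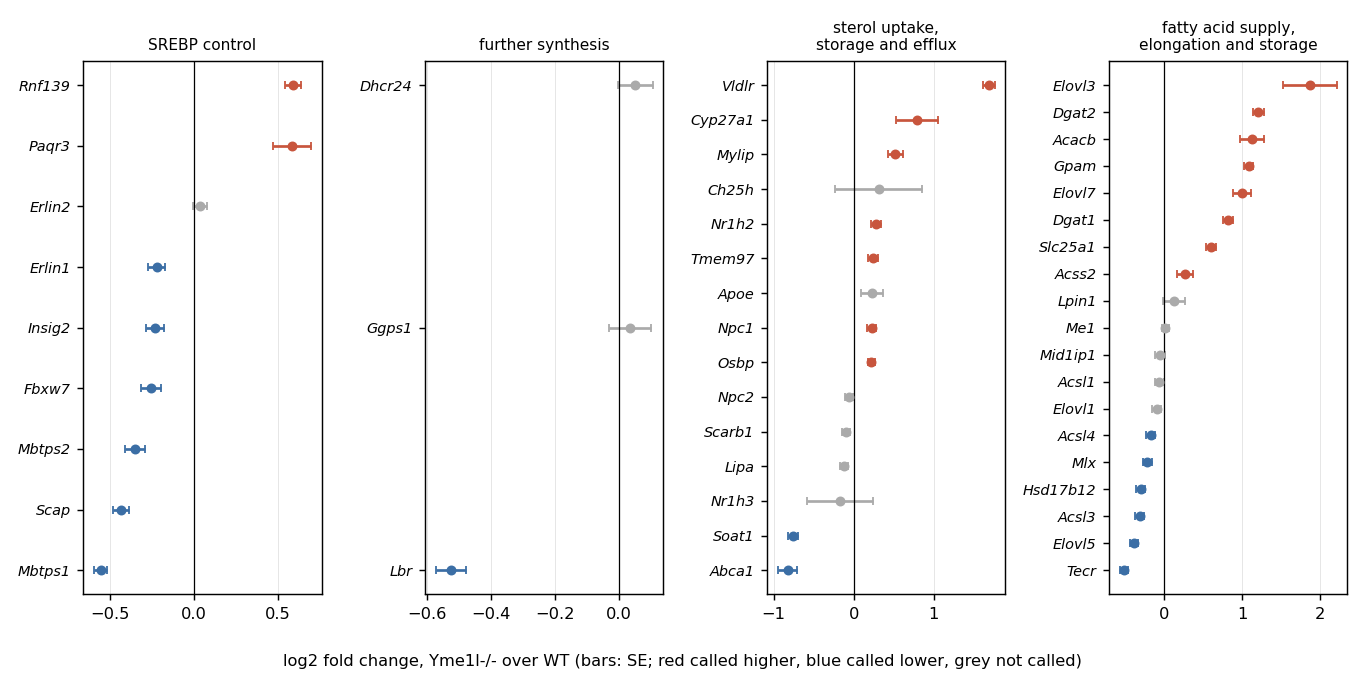
Points give the log2 fold change (Yme1l-/- over WT, bars SE) of 46 of the 50 tested genes in 4 further pathway lists (the other 4 are not shown), with a separate x axis for each list (red called higher, blue called lower, grey not called). Most SREBP control genes lie left of 0, and Vldlr at 1.69 and Elovl3 at 1.87 lie farthest right.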

How the data were processed

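Poly(A)-selected, stranded libraries of 6 cultures were sequenced by the authors in pairs. Reads were mapped by the authors to mm10 (GRCm38) with HISAT2 2.0.4, and transcripts were assembled with StringTie 1.3.3 into loci. The deposited count table holds raw fragment counts per locus. Overlapping genes share a locus, and neither the assignment of fragments with several positions nor the use of strand was given in the sources used here. The second table deposited by the authors (Cuffdiff 2.2.1) holds FPKM as 1 combined value per genotype, used for levels between genes and for positions. Its fold changes and p-values are the authors' own comparison and were not used.

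The counts went into edgeR 4.0.16 (R 4.3.3), using filterByExpr (minimum count 10), TMM factors and the quasi-likelihood test (robust, two-sided, no covariates) on all loci, with Benjamini-Hochberg adjustment over all 13867 loci and calls at an adjusted p under 0.05. Every adjusted p is from this test unless DESeq2 (1.42.0) is named. SE was obtained from fold change and test statistic. The procedure was tested on simulated data. Alternatives were RLE and upper-quartile scaling, DESeq2, other filters, thinning to the smallest library, the replicate number as a block, omission of each culture, of merged loci and of chromosome medians. The members and lists were chosen with earlier results of these data known. Named genes were all members, Yme1l1, SREBP activation genes (Scap, Insig2, Mbtps1, Mbtps2) and, of the other pathway genes, the 4 highest and 4 lowest fold changes among calls with at least 1 CPM in the higher genotype and no overlap; others were named after their values were seen. Some pathway genes are counted in their lists but not reported here by name. Libraries of a genotype differed beyond sampling noise (chi-square per degree of freedom 8.54 to 37.2). They are separate cultures per the labels, but cultures of a clone may share its history, so p-values measure the spread between cultures only.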

Additional observations from a re-analysis of the deposited data

How the results depend on the processing

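Apart from removal of chromosome medians, the alternatives gave 377 values for single members, of which 356 kept direction and side of the threshold. The changes concerned Pmvk, Fdft1, Insig1, Ebp and Nsdhl, and 24 members had none. The call for Insig1 was also lost when no locus with a count was filtered (adjusted p 0.0666). Those for Pmvk (0.0793) and Fdft1 (0.23) were lost under upper-quartile scaling, which moved the median of all loci from 0.00 to 0.06 and the share of calls that were higher from 49.6% to 55.1%. Over the 6 fits that left out a culture, 13 to 14 members were called higher and 9 to 11 lower.

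With chromosome medians removed, 9 members were called higher, and the medians were -0.1238 for control and transport, -0.0838 for fatty acid synthesis and 0.0055 for squalene and sterol steps. The sign was reversed, among others, for Fdps (0.0532), Fdft1 (0.0319), Srebf1 (-0.103), Srebf2 (-0.2072), Acly (-0.0406), Acaca (-0.127), Rnf139 (-0.0047), Ggps1 (-0.0471), Npc2 (0.3806), Tmem97 (-0.1126), Elovl1 (0.0056), Acsl1 (0.2572), Acsl4 (0.0379) and Mid1ip1 (0.1609), all log2 fold changes. The offset itself produces these shifts. Under upper-quartile scaling the medians were 0.2508 for control and transport, 0.3153 for fatty acid synthesis and -0.0091 for squalene and sterol steps, and Npc2 (0.0019), Acsl1 (0.001) and Mid1ip1 (0.011) changed sign. Without merged loci the medians were 0.4431 for the mevalonate pathway and -0.1034 for squalene and sterol steps. After thinning Nr1h3 was at 0.0595. When a culture was left out, genes that were not called on all cultures changed sign, with log2 fold changes from -0.0406 to 0.1022 for Nsdhl, -0.0139 to 0.0919 for Ggps1, -0.0106 to 0.0406 for Me1, -0.0977 to 0.0006 for Mid1ip1, -0.4546 to 0.0601 for Nr1h3 and -0.0801 to 1.5374 for Ch25h, which was called higher without WT replicate 2 (adjusted p 0.00978). The cause of other changes was not tested.

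Between cultures of the same replicate number, deviations from the mean of the genotype had correlations of 0.20, -0.16 and 0.048 for numbers 1, 2 and 3. Correlations between different numbers were not computed, so these values cannot settle whether the numbers pair the cultures. With the replicate block 9794 loci were called, against 9387, and 14 members were higher and 11 lower. Members had at least 441 fragments in each library, whereas Elovl3, Nr1h3 and Ch25h had low counts. Whether depth limited the calls for members was not tested beyond thinning to the smallest library.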
